A study of Mus musculus with 25 samples.

Results

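The 9 genes described here encode Wnt ligands measured in the nonhematopoietic, nonendothelial and nonepithelial cells of the mouse lung: Wnt2, Wnt4, Wnt5a, Wnt9a, Wnt10b, Wnt11, Wnt3a, Wnt7a and Wnt7b. They were chosen by name, as Wnt genes of the lung mesenchyme together with those of the lung epithelium, from the 47729 genes of the bulk count table. The choice was made with earlier results of these data known. All 9 passed the filter on low counts, as did 15773 genes in all. Lung cells were depleted of CD45-, CD31- and CD326-positive cells and sorted as negative for these markers of leukocytes, endothelium and epithelium, and the product is called Lin- cells. All mice carried Col1a1-CreERT2, a tamoxifen-inducible Cre recombinase driven in collagen I-expressing cells, and Fas alleles with a floxed exon 9. The 5 bulk groups of 4 libraries were naive mice, which received no bleomycin, and mice examined 3 or 6 weeks after intratracheal bleomycin. Of the bleomycin-instilled mice, those called Fas-/- had received tamoxifen and those called Fas+/+ had received corn oil, so that deletion of Fas and tamoxifen cannot be told apart. Whether naive mice were instilled or injected with a vehicle is not stated. In comparisons with them, bleomycin therefore cannot be told apart from the instillation and the injections. The ages of the mice are not given in the sources used here. Single-cell RNA-seq was made as 1 library for each of the same 5 conditions, each from a pool of mice, and it therefore allows no test between conditions. The study's statistics text defines replicates as individual animals, so each bulk library is taken as 1 mouse, although no label names the animal.

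Wnt proteins are secreted, lipid-modified signals that act over short distances. They bind Frizzled receptors, with the co-receptors Lrp5 and Lrp6 in the canonical branch, in which beta-catenin enters the nucleus and TCF/LEF factors switch on targets such as Axin2. Wnt5a and Wnt11 are known mainly for signaling that does not pass through beta-catenin, and in the lung Wnt2 is a classic ligand of the mesenchyme, while Wnt7b is a classic ligand of the embryonic airway epithelium. The acylation of a Wnt in its producing cell needs Porcn, and its export needs Wls.

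The results turn on 3 ligands, Wnt3a, Wnt7a and Wnt10b. Their single-cell UMIs lay largely or partly in a small epithelial-like population that the sort did not remove. The source of their RNA in bulk was not measured. Their promoters are therefore shown, as the 250 bases upstream of the RefSeq start (GRCm38.p6, minus strand in each case), 5′ to 3′ in the direction of the gene, with CG dinucleotides in capitals.
Wnt3a, chr11:59290752-59291001: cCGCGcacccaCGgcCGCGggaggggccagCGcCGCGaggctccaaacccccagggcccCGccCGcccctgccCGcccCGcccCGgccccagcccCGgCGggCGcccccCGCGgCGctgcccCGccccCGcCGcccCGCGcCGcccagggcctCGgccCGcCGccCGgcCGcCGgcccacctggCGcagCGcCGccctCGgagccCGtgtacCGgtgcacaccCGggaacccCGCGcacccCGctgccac
Wnt7a, chr6:91411354-91411603: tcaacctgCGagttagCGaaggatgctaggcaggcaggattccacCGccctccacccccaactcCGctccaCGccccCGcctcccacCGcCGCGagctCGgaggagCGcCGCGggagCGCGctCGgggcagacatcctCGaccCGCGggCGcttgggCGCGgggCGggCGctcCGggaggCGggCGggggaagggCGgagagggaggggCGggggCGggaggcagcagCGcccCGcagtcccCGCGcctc
Wnt10b, chr15:98778151-98778400: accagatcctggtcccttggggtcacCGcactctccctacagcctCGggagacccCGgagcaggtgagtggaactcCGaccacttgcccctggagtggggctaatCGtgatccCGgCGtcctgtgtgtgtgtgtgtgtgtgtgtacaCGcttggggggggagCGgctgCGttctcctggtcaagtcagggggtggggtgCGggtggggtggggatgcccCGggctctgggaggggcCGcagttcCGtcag
The windows held 41, 34 and 14 CG dinucleotides, against a median of 6 over the 32851 promoters of the reference table, and their GC content was 87.6%, 77.6% and 66.8%. At least as many CG dinucleotides were found in 1.09% of all promoters for Wnt3a, 3.53% for Wnt7a and 29.4% for Wnt10b. Searched on both strands, these windows held no GGAATG (a TEAD motif, in 12.6% of all promoters), no CTTTGA (a TCF/LEF motif, in 13.8%) and no CACTTGA (an NKX2-1 motif, in 2.68%), which says only that these letters were not in these windows. Of the 9 genes, 7 have an entry in the promoter table. High CG counts were not particular to the 3 ligands shown. The windows of Wnt9a, Wnt4 and Wnt2 held 48, 44 and 20 CG dinucleotides, and those of Wnt11 held 37 and 16. Wnt3a (chromosome 11 from 59248033 to 59290752) and Wnt9a (chromosome 11 from 59306928 to 59333552) are neighbours on opposite strands, with starts that lie 16179 bases apart. The other genes of this set, in the same GRCm38 build, lie on chromosome 6 (Wnt2 from 17988940 to 18030585, Wnt7a from 91363981 to 91411363), chromosome 15 (Wnt7b from 85535437 to 85582473, Wnt10b from 98770712 to 98778150), chromosome 4 (Wnt4 from 137277489 to 137299726), chromosome 14 (Wnt5a from 28504750 to 28527448) and chromosome 7 (Wnt11 from 98835112 to 98855195).

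Bulk libraries held 11819700 to 25189096 counts (median 20122870), and levels are given as CPM (counts-per-million, with TMM normalization). Some libraries held more RNA of other cell types than the rest of their group. The summed level of 8 endothelial markers was 9163 CPM in 3-week Fas+/+ replicate 1 against 2543 to 3324 CPM in the other 3, and 8300 CPM in 3-week Fas-/- replicate 4 against 630.3 to 1109 CPM. In 6-week Fas-/- replicate 2 it was 2647 CPM against 83.5 to 417 CPM, and 6-week Fas+/+ replicate 2 had the highest epithelial level of all libraries. Results for the 9 ligands that depend on these 4 libraries are given with and without them, and those for other genes with all libraries only. Between groups, the summed level of 6 erythroid markers was 2980 to 9591 CPM in naive mice and 17.1 to 236 CPM in the bleomycin groups. Its part in the comparisons with naive mice was not tested. Fas, the targeted gene, was at 21.1 to 23.9 CPM in naive mice, 33.9 to 57.7 CPM in the Fas+/+ and 34.4 to 64.8 CPM in the Fas-/- group at 3 weeks, and 26.1 to 39.7 CPM and 35.5 to 46.5 CPM at 6 weeks. The counts cover the whole gene, so this level does not check the deletion of exon 9. Single-cell libraries held 603 to 3240 cells after filtering (12059 in all), with median depths of 5768 to 8896 UMIs per cell, and pairs of libraries shared 91 to 289 cell barcodes. The naive library had 766 barcodes before filtering. It shared 91 and 269 with the 3-week Fas+/+ and Fas-/- libraries, and 146 and 286 with those at 6 weeks. Whether RNA crossed between libraries was not tested, and the single-cell intervals do not cover it. Clusters are called by markers that include no Wnt gene, and Wnt genes were left out of the features used for clustering. Cell composition did not always follow bulk. Whether the single-cell libraries match bulk by week was not tested, and single-cell values given by week carry this limit. Endothelial-like cells numbered 251 of 2664 at 3 weeks and 1225 of 3240 at 6 weeks in the Fas+/+ libraries. In the Fas-/- libraries they numbered 184 of 2608 and 257 of 2944. The median endothelial marker level in bulk fell instead, from 3079 to 887.2 CPM (Fas+/+) and from 899.1 to 346.4 CPM (Fas-/-). Epithelial-like cells went from 77 to 53 (Fas+/+) and from 19 to 53 (Fas-/-). The median epithelial level in bulk moved the other way, from 262.4 to 794 CPM and from 380.9 to 288.6 CPM. Markers of profibrotic fibroblasts had bulk medians of 47840 (Fas+/+) and 39860 CPM (Fas-/-) at 3 weeks. At 6 weeks these were 15410 and 20690 CPM. By the Wnt10b values given below, most profibrotic-like UMIs lay instead in the 6-week libraries.

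In the single-cell libraries the 9 ligands fell into different cell compartments. Wnt2, Wnt4, Wnt5a, Wnt9a and Wnt11 came mostly from mesenchymal-like cells. Wnt3a and Wnt7a came almost entirely from 205 epithelial-like cells, Wnt10b came about equally from epithelial-like and mesenchymal-like cells, and Wnt7b came mainly from mesothelial-like cells. Of 135 Wnt3a UMIs, 125 (92.6%, exact binomial 95% interval 86.8 to 96.4%) were in epithelial-like cells and 3 in mesenchymal-like cells. Of 128 Wnt7a UMIs, 119 (93.0%, interval 87.1 to 96.7%) were in epithelial-like and 5 in mesenchymal-like cells. Of 247 Wnt10b UMIs, 112 (45.3%, interval 39.0 to 51.8%) were epithelial and 126 (51.0%, interval 44.6 to 57.4%) mesenchymal. These intervals and all single-cell intervals given here cover counting error only.

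**Figure D1:**
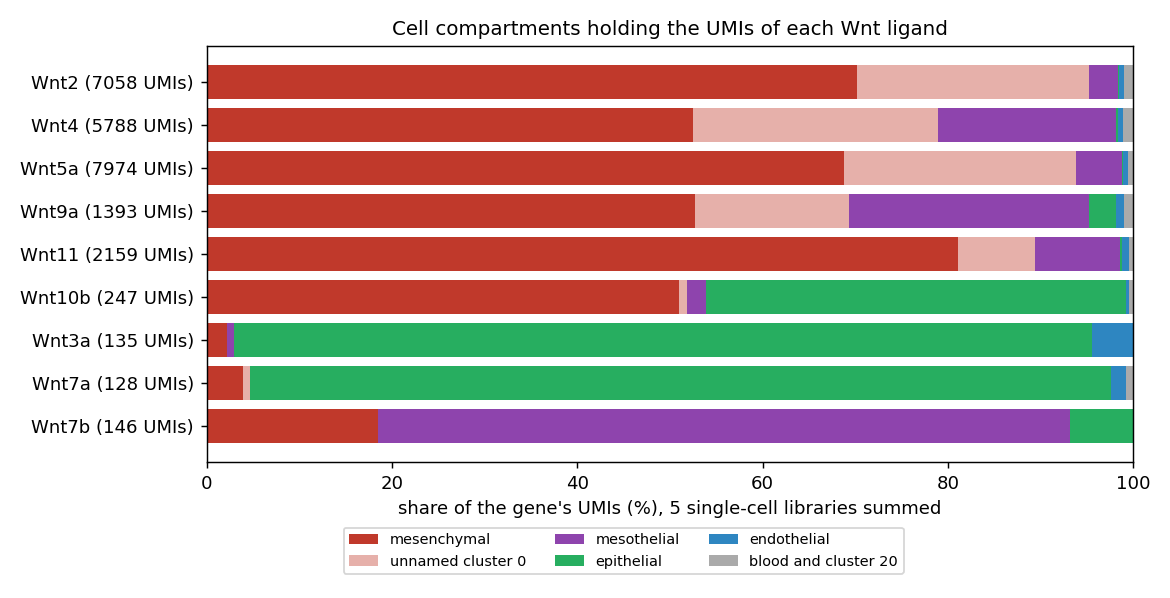
Share of each ligand's UMIs held by each cell compartment, as percent of the UMIs in parentheses, with the 5 single-cell libraries summed. Wnt3a and Wnt7a bars are almost wholly epithelial (92.6% and 93.0%), the Wnt7b bar is mostly mesothelial (74.7%), and the mesenchymal segment is the largest for the other 6 ligands.

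Mesenchymal-like cells of a named class held 70.2% of 7058 Wnt2 UMIs, 52.5% of 5788 Wnt4 UMIs, 68.8% of 7974 Wnt5a UMIs, 52.7% of 1393 Wnt9a UMIs and 81.1% of 2159 Wnt11 UMIs. A further cluster of 1852 cells, led by the acute-phase genes Saa3 and Lcn2 and by Mmp3, was not named by the markers. Its pan-mesenchymal marker level was 57773 on the scale of UMI CPM (UMIs of the genes per all UMIs of the class, scaled as CPM), and it held 25.05% of Wnt2, 26.5% of Wnt4, 24.98% of Wnt5a, 16.6% of Wnt9a and 8.34% of Wnt11 UMIs. Counted with the mesenchymal classes, it raised their shares to 95.3%, 79.0%, 93.8%, 69.3% and 89.4%. Epithelial-like cells held at most 2.94% of the UMIs of any of these 5 ligands, the highest share being that of Wnt9a.

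Each of these ligands had a leading cell class. Wnt2 was highest in lipofibroblast-like cells, fibroblasts marked here by Tcf21, Npnt and Limch1, at 213.2 UMI CPM (exact Poisson 95% interval 207.0 to 219.4), and the unnamed cluster followed at 64.3. Wnt2 UMIs were found in 55.7% of the 2807 lipofibroblast-like cells and in 1.66% of 1926 endothelial-like cells, which serve as the background of free RNA (median depths 6723 and 4814 UMIs). The endothelial-like cells include 91 lymphatic ones, of which 13 had a Wnt2 UMI. Of 347 erythroid-like cells, at a median depth of 1835 UMIs, 38 had a Wnt2 UMI. The endothelial share is therefore not an upper limit of the background. Wnt4 was highest in pericyte-like cells, the mural cells of capillaries, at 269.3 UMI CPM (252.7 to 286.6). Mesothelial-like cells, which line the pleura, were at 127.2 UMI CPM, and 982 of their 1109 Wnt4 UMIs were in 1 of their 2 clusters (390 of 704 cells). That cluster alone stood at 298.8 UMI CPM (280.4 to 318.1) and the other at 23.4. The pericyte-like cluster with the highest level was at 293.6 (274.6 to 313.6), so the pericyte lead holds for whole classes only. The 54 platelet-like cells stood at 163.1 UMI CPM (105.5 to 240.8), but their 25 Wnt4 UMIs were in 3 cells. Wnt4 UMIs were in 49.5% of pericyte-like and 1.51% of endothelial-like cells.

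Wnt5a was highest in ductal myofibroblast-like cells, marked by Hhip and Aspn, at 476.5 UMI CPM (456.6 to 497.1), and 74.0% of these 530 cells had a UMI against 1.77% of endothelial-like cells. Pericyte-like cells were next at 103.3 UMI CPM, followed by adventitial-like cells at 75.6, the unnamed cluster at 72.4 and profibrotic-like cells at 68.9, the last being fibroblasts marked by Cthrc1 and Postn. The intervals of these last 3 classes overlap. Wnt11 had the same leading class, with 132.6 UMI CPM (122.1 to 143.6) in ductal myofibroblast-like and 36.7 (34.01 to 39.5) in profibrotic-like cells, and its UMIs were in 39.6% of ductal myofibroblast-like against 0.727% of endothelial-like cells. The ductal myofibroblast-like cells led per UMI but did not hold most of the RNA: they held 26.9% of Wnt5a and 27.65% of Wnt11 UMIs, while profibrotic-like cells held 32.6% of Wnt11 and the unnamed cluster 24.98% of Wnt5a UMIs. Wnt9a was the least restricted of the mesenchymal ligands, at 41.3 UMI CPM (37.1 to 45.8) in mesothelial-like, 30.7 (27.6 to 34.03) in adventitial-like and 24.02 (17.2 to 32.6) in epithelial-like cells, the last 2 with overlapping intervals. The endothelial share of cells with a Wnt9a UMI was 0.571%.

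**Figure D2:**
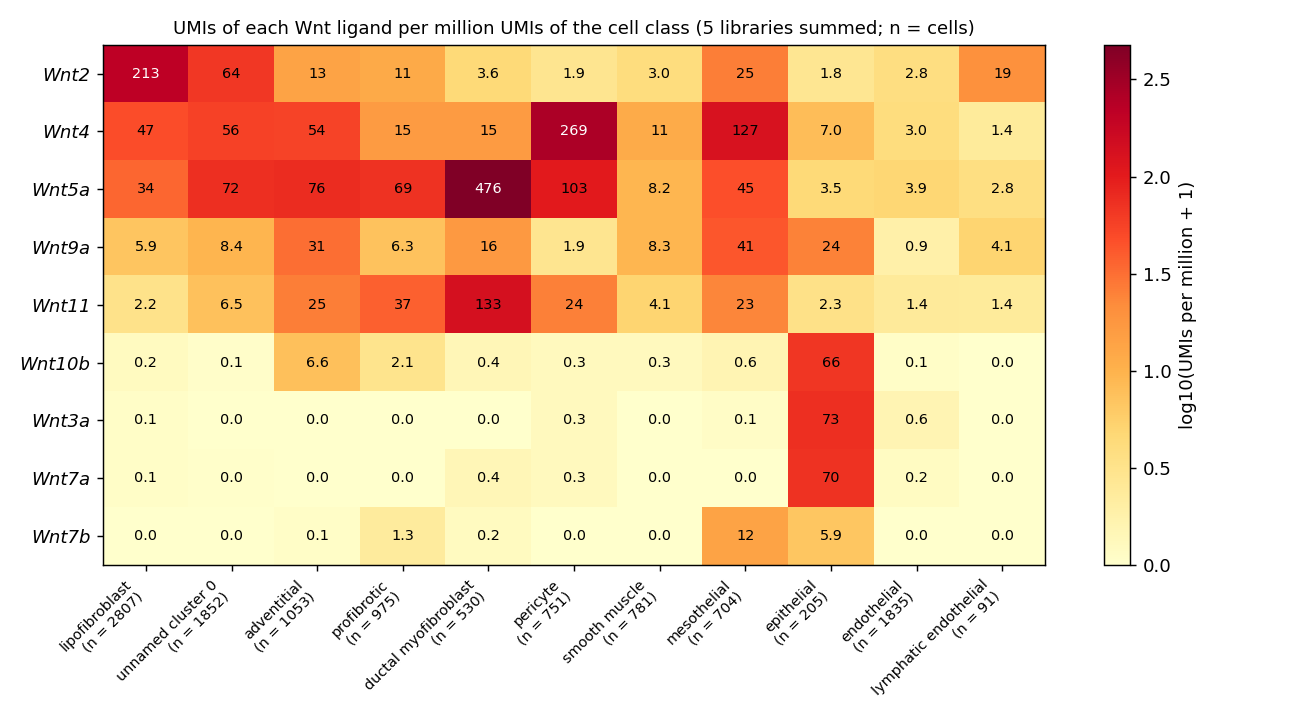
Level of each ligand (rows) in each cell class (columns, with the number of cells) as UMI CPM, with 5 libraries summed and colour on a log10 scale. Each of the upper 5 rows peaks in a mesenchymal or mesothelial class (Wnt5a 476 UMI CPM in ductal myofibroblast-like cells), whereas Wnt10b, Wnt3a and Wnt7a peak in epithelial-like cells at 66 to 73 UMI CPM.

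The epithelial-like cells were mostly of 1 kind. Of the 205 cells, 198 had more UMIs of alveolar type 1 than of alveolar type 2 markers, and 0 cells lay near the cut (shares of 0.4 to 0.6). Ager, a type 1 marker, was detected in 98.0% of the 205 cells and Hopx in 95.6%, the surfactant gene Sftpc in 11.2%, the ciliated-cell gene Foxj1 in 0, and Epcam, which encodes the CD326 used for depletion, in 50.2%. The 198 cells held all 125 Wnt3a, 119 Wnt7a, 112 Wnt10b and 41 Wnt9a UMIs of the epithelial-like cluster. The 7 other cells held 0 UMIs of these 4 genes, which in 112028 UMIs allows up to 32.9 UMI CPM (exact Poisson 95% interval). Wnt3a was detected in 58, Wnt7a in 68 and Wnt10b in 65 of the 205 cells, and each pair of these genes was detected together in 34 cells. The share of epithelial-like cells with a UMI was 28.3% for Wnt3a, 33.2% for Wnt7a and 31.7% for Wnt10b at a median depth of 5074 UMIs, against 0.156%, 0.104% and 0.0519% of endothelial-like cells.

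Wnt3a, a canonical ligand, stood at 73.2 UMI CPM in epithelial-like cells (61.0 to 87.3) and at 0.0449 in the mesenchymal classes, and Wnt7a stood at 69.7 (57.8 to 83.4). The epithelial-like cells numbered 3 of 603 cells in the naive library, and 77 of 2664 in the Fas+/+ and 19 of 2608 in the Fas-/- library at 3 weeks. At 6 weeks they numbered 53 of 3240 in the Fas+/+ and 53 of 2944 in the Fas-/- library. Across the 4 bleomycin libraries the epithelial Wnt3a level was 73.8, 85.2, 81.6 and 56.7 UMI CPM, in the order just given, and that of Wnt7a was 77.6, 28.4, 58.3 and 85.0. The lowest of these, Wnt7a in the Fas-/- library at 3 weeks, rests on 4 UMIs and has an interval of 7.7 to 72.8 UMI CPM. At 6 weeks Wnt7a per epithelial UMI was thus not lower in the Fas-/- library, a comparison of 2 libraries that has no replicate.

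Wnt10b, also a canonical ligand, had a second source. It stood at 65.6 UMI CPM (54.0 to 79.0) in epithelial-like cells, at 6.60 (5.20 to 8.26) in adventitial-like cells and at 2.09 (1.49 to 2.84) in profibrotic-like cells, against 0.0888 in endothelial-like cells. In adventitial-like cells the level was 8.06 UMI CPM (5.05 to 12.2, 22 UMIs) in the Fas+/+ library at 6 weeks and 1.23 (0.334 to 3.14, 4 UMIs) in the Fas-/- library at 6 weeks. In profibrotic-like cells of the same libraries it was 4.195 (2.81 to 6.02, 29 UMIs) and 0.808 (0.325 to 1.67, 7 UMIs). Neither pair of counting intervals overlaps. In the naive library and the 3-week Fas+/+ and Fas-/- libraries the adventitial level was 13.8, 8.41 and 7.88, and the profibrotic level was 0, 0 and 2.26. The profibrotic values of 0 are given without an interval and do not show that Wnt10b was absent there. In epithelial-like cells Wnt10b was at 70.0 and 69.3 UMI CPM in the 6-week Fas+/+ and Fas-/- libraries. The difference between the 6-week libraries was thus seen in fibroblast-like and not in epithelial-like cells, but with 1 library per condition it has no replicate check and no test. The cell composition of these libraries also did not always follow bulk, so they do not place the bulk difference in a cell class.

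Wnt7b did not follow the other epithelial ligands. Of its 146 UMIs, 109 (74.7%, interval 66.8 to 81.5%) were in mesothelial-like cells, 27 in mesenchymal-like cells, 25 of these profibrotic-like, and 10 in epithelial-like cells. Its mesothelial level was 12.5 UMI CPM (10.3 to 15.1), with 12.8% of cells positive, and its epithelial level was 5.86 (2.81 to 10.8). It was detected in 0 of 1926 endothelial-like cells. Of its 10 epithelial UMIs, 4 were in 1 of the 7 cells that were not type 1-like.

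In bulk, levels between genes were compared per length, as the mean RPKM over all 20 libraries. Wnt2 was the highest Wnt gene at 21.7 RPKM, followed by Wnt5a at 15.1, Wnt4 at 7.83, Wnt9a at 7.75 and Wnt11 at 4.89. Wnt10b was at 1.14, Wnt3a at 1.13, Wnt7a at 0.926 and Wnt7b at 0.393 RPKM. Among the Wnt genes outside the set, Wnt5b was at 5.63 and Wnt2b at 5.31 RPKM, above Wnt11. These means run over all groups, and the differences between Wnt4 and Wnt9a and between Wnt10b and Wnt3a are far smaller than the spread over libraries.

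**Figure D3:**
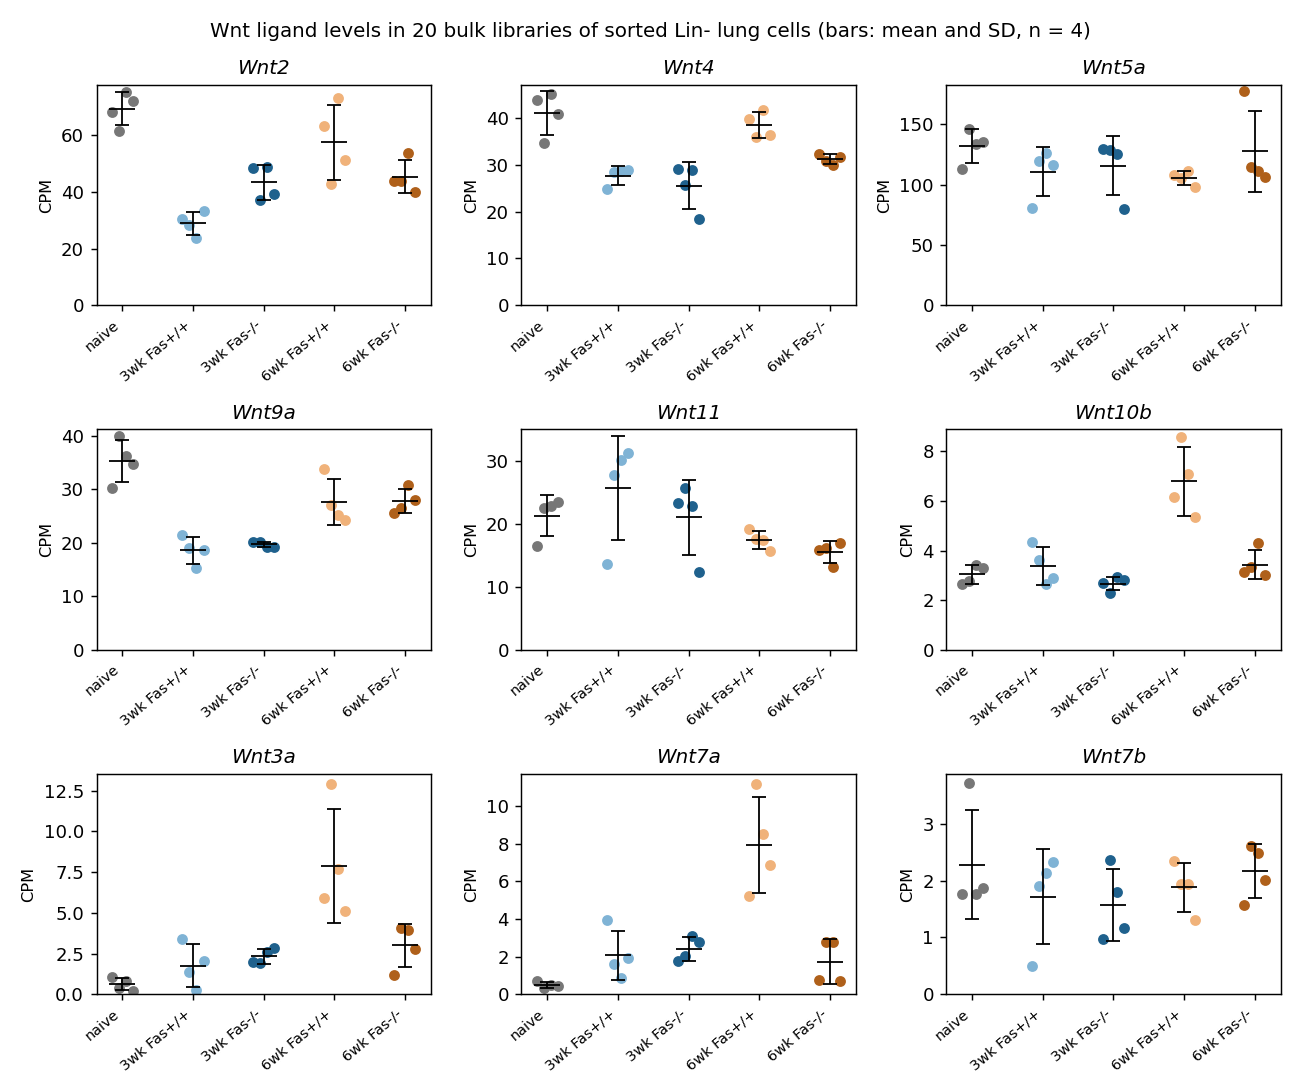
Bulk level of the 9 ligands in CPM, 1 point per library, with the mean and SD of each group of 4. Wnt2, Wnt4 and Wnt9a dip at 3 weeks in both genotypes, and Wnt3a, Wnt7a and Wnt10b are highest in the Fas+/+ libraries at 6 weeks (7.89, 7.95 and 6.79 CPM on average).

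The first question was how the ligands differed between bleomycin-instilled and naive mice. At 3 weeks Wnt2, Wnt4 and Wnt9a were lower than in naive mice in both genotypes. Wnt3a and Wnt7a were higher, and the other 4 ligands did not pass the test. In the Fas+/+ group 5 of the 9 ligands were called (edgeR quasi-likelihood test, adjusted p of 0.05 or less over all genes), against 41.3% of all 15773 genes tested. In the Fas-/- group 5 of 9 were called against 32% of all genes. At 6 weeks 3 of 9 were called in the Fas+/+ group, all higher, against 5.31% of all genes, and 4 of 9 in the Fas-/- group, 2 higher and 2 lower, against 6.48%. All 4 comparisons share the naive libraries. Without the 4 libraries that stand apart, the counts were again 5, 5, 3 and 4 (against 50.4%, 39.0%, 9.62% and 11.7% of all genes), but not all of the same ligands: Wnt11 replaced Wnt3a in the Fas+/+ group at 3 weeks and Wnt7a in the Fas-/- group at 6 weeks. Without 6-week Fas-/- replicate 2 alone, 0 ligands were called in the Fas-/- group at 6 weeks, against 560 of 16052 genes (adjusted p of 0.0560 to 0.136 for the 4).

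Wnt2 was at 68.2, 61.6, 75.2 and 72.1 CPM in the naive libraries. It was at 30.4, 28.2, 23.6 and 33.2 CPM in the Fas+/+ group at 3 weeks, and at 48.3, 37.2, 48.9 and 39.2 CPM in the Fas-/- group. Every 3-week library lay below every naive library, and every Fas-/- library above every Fas+/+ library. Against naive mice the log2 fold change of Wnt2 was -1.26 (SE 0.150, edgeR adjusted p = 8.97e-06) in the Fas+/+ and -0.68 (SE 0.148, adjusted p = 0.00257) in the Fas-/- group. From naive mice to 3 weeks the summed level of 8 lipofibroblast markers moved with Wnt2. It was 9687 to 11370 CPM in naive mice. At 3 weeks it was 3338 to 5552 CPM in the Fas+/+ and 5428 to 7165 CPM in the Fas-/- group. At 6 weeks it was 7208 to 8984 CPM in the Fas+/+ and 7838 to 9522 CPM in the Fas-/- group. In the Fas-/- group its median thus rose from 6349 to 8209 CPM, while Wnt2 averaged 43.4 and 45.4 CPM at 3 and 6 weeks. In bulk samples, fewer cells of a type and less RNA per cell cannot be told apart. In the single-cell libraries Wnt2 in lipofibroblast-like cells was at 222.7 UMI CPM in naive mice, 238.7 in the Fas+/+ and 181.0 in the Fas-/- group at 3 weeks, and 216.9 and 203.9 at 6 weeks, so the level per class did not follow the bulk order. At 6 weeks bulk Wnt2 was at 63.2, 42.8, 73.0 and 51.2 CPM in the Fas+/+ group, which overlapped the naive libraries, and at 43.9, 43.9, 53.6 and 39.98 CPM in the Fas-/- group, which did not. Only the Fas-/- change was called (log2 fold change -0.61, SE 0.148, adjusted p = 0.0197), a call lost without Fas-/- replicate 2, Fas-/- replicate 4 or naive replicate 3 (adjusted p = 0.0560 to 0.0663), and the difference between the genotypes has its own test below.

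Wnt4 was at 34.7 to 45.1 CPM in naive mice, 24.8 to 28.99 CPM in the Fas+/+ and 18.4 to 29.1 CPM in the Fas-/- group at 3 weeks. Both 3-week groups lay below all naive libraries, with log2 fold changes of -0.57 (SE 0.116, adjusted p = 0.00102) and -0.69 (SE 0.116, adjusted p = 0.00037). At 6 weeks Wnt4 was at 35.9 to 41.8 CPM in the Fas+/+ and 29.9 to 32.4 CPM in the Fas-/- group, and its change in the Fas-/- group of -0.40 (SE 0.116) was at the edge of the threshold (adjusted p = 0.0492), which 7 of the 8 fits with a library left out did not pass (adjusted p up to 0.142). Wnt9a was at 30.4 to 40.01 CPM in naive mice and at 15.3 to 21.5 CPM and 19.2 to 20.2 CPM in the Fas+/+ and Fas-/- mice at 3 weeks. Its log2 fold changes there were -0.92 (SE 0.112, adjusted p = 1.1e-05) and -0.84 (SE 0.112, adjusted p = 5.1e-05), again without overlap, and at 6 weeks it was at 24.3 to 33.9 CPM and 25.7 to 30.8 CPM.

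Wnt5a and Wnt11, whose level per UMI was highest in ductal myofibroblast-like cells, were not called in any comparison with all libraries. Wnt5a was at 113.2, 146.5, 134.0 and 135.7 CPM in naive mice. Its group means at 3 weeks were 110.6 ± 20.3 CPM (SD, n = 4) in the Fas+/+ and 115.9 ± 24.3 CPM in the Fas-/- group, and at 6 weeks 105.5 ± 5.59 and 127.6 ± 33.7 CPM. Wnt11 was at 16.5 to 23.5 CPM in naive mice, and at 13.6, 27.8, 30.2 and 31.4 CPM in the Fas+/+ group at 3 weeks. The lowest of these is the library with the high endothelial and low profibrotic marker level. Without the 4 libraries that stand apart, Wnt11 was lower at 6 than at 3 weeks in the Fas+/+ group (log2 fold change -0.77, adjusted p = 0.000288). It was also lower in the Fas-/- group (-0.64, adjusted p = 0.00466). With these libraries it was called in neither group (-0.56, adjusted p = 0.0844, and -0.44, adjusted p = 0.234). In the fit without them Wnt11 was higher than in naive mice in the Fas+/+ group at 3 weeks (0.48, adjusted p = 0.00365) and lower in the Fas-/- group at 6 weeks (-0.48, adjusted p = 0.0199). Wnt7b stood at 0.491 to 3.71 CPM over all libraries and was called in no comparison.

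Wnt3a was at 1.03, 0.399, 0.812 and 0.216 CPM in naive mice. At 3 weeks it was at 3.38, 1.35, 0.266 and 2.03 CPM in the Fas+/+ and 1.99, 1.93, 2.58 and 2.85 CPM in the Fas-/- group. At 6 weeks it was at 5.89, 12.9, 7.69 and 5.09 CPM in the Fas+/+ and 1.20, 4.10, 3.95 and 2.75 CPM in the Fas-/- group. All Fas+/+ libraries at 6 weeks lay above all libraries of every other group. Against naive mice Wnt3a rose 12.8-fold in the 6-week Fas+/+ group (log2 fold change 3.68, SE 0.562, adjusted p = 0.000672), and by 2.28 on the log2 scale in the Fas-/- group (SE 0.557, adjusted p = 0.0206). The latter call was lost without Fas-/- replicate 2, naive replicate 2 or naive replicate 4 (adjusted p = 0.0596 to 0.0633). At 3 weeks the changes were 1.56 (SE 0.565, adjusted p = 0.0344) and 1.92 (SE 0.558, adjusted p = 0.0144). The call in the Fas+/+ group at 3 weeks, where the groups overlap, was lost without the 4 libraries that stand apart (1.08, adjusted p = 0.114).

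Wnt7a was at 0.689, 0.320, 0.478 and 0.433 CPM in naive mice. At 3 weeks it was at 3.92, 1.60, 0.886 and 1.93 CPM in the Fas+/+ and 1.78, 2.01, 3.12 and 2.80 CPM in the Fas-/- group. At 6 weeks it was at 5.21, 11.2, 8.53 and 6.90 CPM in the Fas+/+ and 0.731, 2.77, 2.77 and 0.688 CPM in the Fas-/- group. Again all Fas+/+ libraries at 6 weeks lay above all others. The rise against naive mice was 16.4-fold in the 6-week Fas+/+ group (log2 fold change 4.04, SE 0.511, adjusted p = 0.000168). It was 1.84 on the log2 scale in the Fas-/- group (SE 0.513, adjusted p = 0.0399), a call lost in 6 of the 8 fits with a library left out (adjusted p up to 0.136) and without the 4 libraries that stand apart (1.51, adjusted p = 0.0540), and 2.14 and 2.33 at 3 weeks (adjusted p = 0.00302 and 0.00246).

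Wnt10b was at 2.67 to 3.44 CPM in naive mice, 2.66 to 4.37 CPM in the Fas+/+ and 2.28 to 2.92 CPM in the Fas-/- group at 3 weeks. At 6 weeks it was at 6.17, 8.58, 7.09 and 5.34 CPM in the Fas+/+ and 3.13, 3.33, 4.29 and 3.00 CPM in the Fas-/- group. The Fas+/+ libraries at 6 weeks were the highest of the study, with a log2 fold change against naive mice of 1.16 (SE 0.180, adjusted p = 0.000773), and the other 3 groups were not called against naive mice.

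Epithelial RNA moved with Wnt3a and Wnt7a. Wnt10b, like the epithelial level, was highest in the Fas+/+ group at 6 weeks, but it was not called against naive mice at 3 weeks (0.16 and -0.19 on the log2 scale), when the epithelial level was already above that of naive mice. The summed level of the epithelial marker list (15 of 16 genes tested) was 32.4 to 144.3 CPM in naive mice. At 3 weeks it was 210.6 to 792.5 CPM in the Fas+/+ and 286.2 to 490.8 CPM in the Fas-/- group, and at 6 weeks 595.4 to 1680 CPM and 137.3 to 440.1 CPM, so all Fas+/+ libraries lay above all Fas-/- libraries at 6 weeks. The single-cell libraries did not show this order, with 53 epithelial-like cells of 3240 in the Fas+/+ and 53 of 2944 in the Fas-/- library at 6 weeks. In the naive libraries 2 of the 16 markers, Cldn4 and Foxj1, were at 0, and in no bleomycin group was a marker at 0 in all libraries. The library with the highest epithelial level, 6-week Fas+/+ replicate 2, also had the highest Wnt3a, Wnt7a and Wnt10b. Per 100 CPM of epithelial markers, Wnt3a was at 0.769 ± 0.374 CPM in the naive group (SD, n = 4) and at 0.831 ± 0.0720 CPM in the Fas+/+ group at 6 weeks, and Wnt7a at 0.672 ± 0.278 and 0.884 ± 0.245 CPM. These ratios overlapped between the groups (exact permutation test, p = 0.6 and 0.286), whereas the CPM values did not.

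When the mean log2 epithelial marker level entered the model, 2 of 9 ligands were called at 3 weeks in the Fas+/+ group (Wnt2 and Wnt9a) and 1 in the Fas-/- group (Wnt9a) against naive mice. With this covariate the calls over all genes also fell, to 13.5% and 8.90%. At 6 weeks 0 ligands were called in either genotype, against 0.0571% of all genes in the Fas+/+ and 2.81% in the Fas-/- group. Wnt3a and Wnt7a at 6 weeks in the Fas+/+ group then had log2 fold changes of 1.36 (adjusted p = 0.393) and 2.01 (adjusted p = 0.296). At 3 weeks the Wnt3a changes turned negative (-0.84 in the Fas+/+ and -0.27 in the Fas-/- group, adjusted p = 0.498 and 0.848). The epithelial level itself separates the groups, and a p above the threshold there does not show that the levels were equal. Per 100 CPM of epithelial markers Wnt10b was lower in all bleomycin groups (0.711 to 1.42 CPM on average) than in naive mice (4.77 ± 3.00 CPM, n = 4), without overlap (exact permutation test, p = 0.0286, the smallest that 4 libraries against 4 allow, adjusted p = 0.129 over 18 comparisons). The divisor was lowest in the naive group (median 85.8 CPM), and Wnt10b also had a mesenchymal source. This ratio therefore does not give Wnt10b per epithelial cell, and the part of the divisor in it was not tested.

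**Figure D4:**
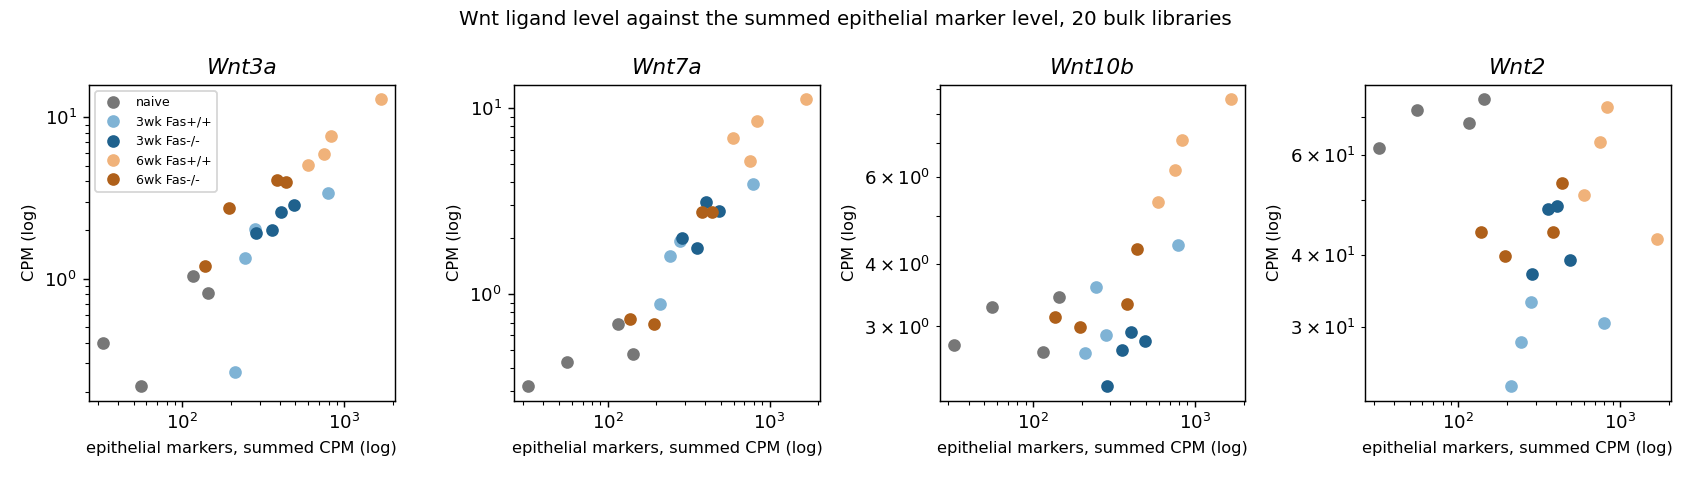
Level of Wnt3a, Wnt7a, Wnt10b and, for contrast, Wnt2 (CPM, log axis) against the summed CPM of the epithelial markers (log axis) in each of 20 bulk libraries, coloured by group. Wnt3a and Wnt7a climb with the epithelial level from naive libraries (32.4 to 144.3 CPM of markers) to Fas+/+ libraries at 6 weeks (595.4 to 1680 CPM), Wnt10b is flat until the highest libraries, and the naive libraries are the highest group for Wnt2.

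The second question was whether Fas+/+ and Fas-/- mice differed within a week. At 3 weeks 0 of the 9 ligands were called by edgeR, against 0.171% of all genes, and 1 ligand had an unadjusted p under 0.05, as did 8.62% of all genes. This was Wnt2, at 43.4 ± 6.06 CPM in the Fas-/- and 28.9 ± 4.07 CPM in the Fas+/+ group (SD, n = 4), with no overlap, as for 3.92% of all genes (log2 fold change 0.59, 95% interval 0.27 to 0.90, SE 0.149, adjusted p = 0.134). DESeq2, which called 1.15% of all genes, called it (adjusted p = 0.0235), as did edgeR without the 4 libraries that stand apart (0.64, adjusted p = 0.0175; 8.13% of all genes) and without Fas-/- replicate 4 alone (adjusted p = 0.0392). The single-cell level of Wnt2 per lipofibroblast-like UMI went the other way in the 3-week libraries, at 181.0 (168.6 to 194.0) in the Fas-/- and 238.7 (226.6 to 251.3) in the Fas+/+ library. This class pools clusters with Wnt2 at 238.0, 136.0 and 76.5 UMI CPM. The counting intervals do not cover their mix in each library, and its part was not tested.

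At 6 weeks 0 of 9 ligands were called, against 0.0507% of all genes, although 5 had an unadjusted p under 0.05, as did 8.07% of all genes, and 4 did not overlap between the genotypes, as 6.81% of all genes did not. Those 4 were all lower in the Fas-/- group. Wnt10b had a log2 fold change of -0.98 (SE 0.180, 95% interval -1.36 to -0.61, adjusted p = 0.0512). For Wnt7a it was -2.20 (SE 0.455, 95% interval -3.15 to -1.24, adjusted p = 0.101), for Wnt3a -1.40 (SE 0.493, adjusted p = 0.378) and for Wnt4 -0.30 (SE 0.116, adjusted p = 0.463). DESeq2 called Wnt10b (adjusted p = 0.000251) and Wnt7a (adjusted p = 0.000967), against 1.08% of all genes. Without the 4 libraries that stand apart edgeR called Wnt7a (-2.32, adjusted p = 0.0337) and not Wnt10b (-0.84, adjusted p = 0.0568), against 0.738% of all genes. Without Fas+/+ replicate 4 it called Wnt10b (-1.09, adjusted p = 0.0374). The study's own list of Wnt genes at 6 weeks, which holds Wnt10b, Wnt3a, Wnt7a and Wnt4, was chosen on these samples and is not independent evidence of their direction. The 9 ligands were chosen with earlier results of these data known. The count of 4 without overlap is therefore not independent of that choice, and its excess over the share of all genes is no support.

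Set against the epithelial markers, Wnt3a, Wnt7a and Wnt10b overlapped between the genotypes at 6 weeks. With 4 libraries against 4, an overlap does not show that the ratios were equal. Wnt3a per 100 CPM of epithelial markers was at 1.06 ± 0.249 CPM in the Fas-/- and 0.831 ± 0.0720 CPM in the Fas+/+ group (SD, n = 4; exact permutation test, p = 0.114, adjusted p = 0.293 over 18 comparisons). Wnt7a was at 0.560 ± 0.158 and 0.884 ± 0.245 CPM (n = 4; exact permutation test, p = 0.0857, adjusted p = 0.257). Wnt10b was at 1.42 ± 0.647 and 0.769 ± 0.175 CPM, higher in the Fas-/- group (n = 4; exact permutation test, p = 0.0571, adjusted p = 0.206), the opposite direction to its CPM. Mesenchymal-like cells held 51.0% of Wnt10b UMIs, and the epithelial level itself separated the genotypes. Its ratio therefore does not give Wnt10b per epithelial cell. With the epithelial covariate the log2 fold changes were -0.69 for Wnt10b, -1.49 for Wnt7a and -0.48 for Wnt3a, with adjusted p from 0.582 to 0.904, and 0 of all 15773 genes were called. The part of epithelial RNA in the genotype difference was not tested beyond these values.

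**Figure D5:**
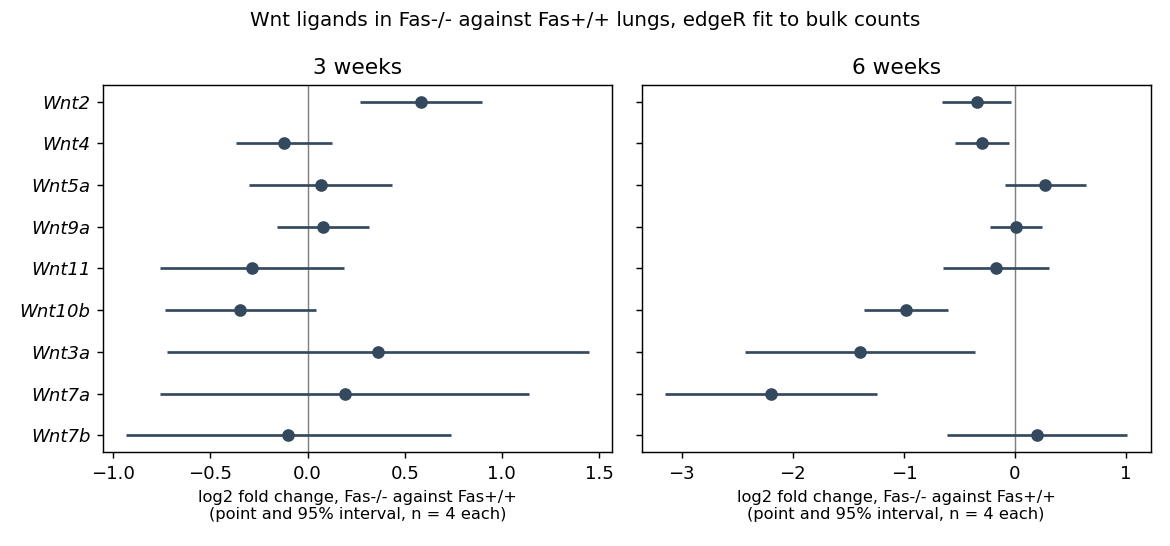
Log2 fold change of each ligand in the Fas-/- against Fas+/+ mice at 3 weeks (left) and 6 weeks (right), as points with 95% intervals from the edgeR fit (n = 4 libraries per group). The scales of the panels differ. At 3 weeks only the Wnt2 interval lies wholly above 0 (0.59), and at 6 weeks the intervals of Wnt2, Wnt4, Wnt10b, Wnt3a and Wnt7a lie below 0.

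Wnt2 changed its order between the weeks, being higher in the Fas-/- group at 3 weeks and lower at 6 weeks (-0.34, 95% interval -0.65 to -0.03, adjusted p = 0.543, groups overlapping). The test of this difference, the genotype-by-time interaction, called 0 of 9 ligands against 0.00634% of all genes. Wnt2 had an interaction of -0.93 on the log2 scale (SE 0.210, unadjusted p = 0.000334, adjusted p = 0.159) and Wnt7a of -2.39 (SE 0.638, unadjusted p = 0.00152, adjusted p = 0.242). DESeq2 called both (adjusted p = 0.00971 and 0.0382; 0.662% of all genes). So did edgeR without the 4 libraries that stand apart (-1.09, adjusted p = 0.0276, and -2.91, adjusted p = 0.0326; 1.58% of all genes), and without 3-week Fas+/+ replicate 1 alone (adjusted p = 0.0495 and 0.0371).

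The third question was the course from 3 to 6 weeks. In the Fas+/+ group 6 of 9 ligands rose, against 22.9% of all genes called in either direction, and in the Fas-/- group 1 did, against 9.02%. In the Fas+/+ group these were Wnt2 (0.99, adjusted p = 0.000283), Wnt4 (0.47, adjusted p = 0.00747), Wnt9a (0.57, adjusted p = 0.00176), Wnt10b (1.00, adjusted p = 0.00101), Wnt3a (2.12, adjusted p = 0.00668) and Wnt7a (1.90, adjusted p = 0.00569). In the Fas-/- group Wnt9a rose by a similar amount (0.49, SE 0.112, adjusted p = 0.0129). Whether the other 5 differ in their course between the genotypes is the interaction above, which called none of them. With the mean of the mesothelial markers as a covariate, 2 of the 9 were called in the Fas+/+ and 0 in the Fas-/- group, and the calls over all genes fell to 4.30% and 0.317%.

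The other genes of the pathway moved in both directions. At 3 weeks in the Fas+/+ group 3 of 15 receptors and co-receptors tested were higher and 4 lower, a share near the 41.3% of all genes called there. Fzd7 (-1.09, adjusted p = 3.73e-06) was among those lower and Fzd6 (3.12, adjusted p = 0.00151) among those higher, both being Frizzled receptors. Fzd6 was at 24.4 to 70.0 CPM there, 6.92 to 57.7 CPM in the Fas-/- group at 3 weeks and 2.96 to 7.19 CPM in naive mice. The endothelial marker level was 2543 to 9163, 630.3 to 8300 and 134.7 to 383.1 CPM in these groups, and its part in the Fzd6 level was not tested. Of 7 genes of Wnt secretion and transport 2 were higher and 2 lower. Wls, the export carrier of Wnts, averaged 95.4 ± 3.31 CPM in the naive group (SD, n = 4) and was higher in all 4 bleomycin groups, by 0.54, 0.39, 0.44 and 0.50 on the log2 scale for Fas+/+ and Fas-/- mice at 3 and then at 6 weeks (adjusted p = 0.000887 to 0.0227). Reck, a membrane-anchored protein with a part in Wnt7 signaling, was lower at 3 weeks in both genotypes (-1.32 and -1.20, adjusted p = 2.06e-05 and 9.24e-05).

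Of 11 feedback targets of canonical signaling, 5 were lower and 2 higher at 3 weeks in each genotype, against 41.3% and 32% of all genes called in either direction. Axin2, the standard readout of canonical signaling, averaged 140.2 ± 14.2 CPM in the naive group (SD, n = 4) and 78.0 ± 11.4 CPM in the 3-week Fas+/+ group (log2 fold change -0.85, SE 0.103, adjusted p = 1.11e-05), and 95.9 ± 8.97 CPM in the Fas-/- group (-0.55, adjusted p = 0.00079). At 6 weeks, when Wnt3a, Wnt7a and Wnt10b were highest in the Fas+/+ group, Axin2 was at 117.6 ± 11.3 CPM in the Fas+/+ and 128.0 ± 7.97 CPM in the Fas-/- group and was not called against naive mice. Other targets were called then. In the Fas+/+ group 2 of the 11 were higher and 2 lower, against 5.31% of all genes called. In the Fas-/- group 1 was higher and 2 lower, against 6.48%. Znrf3, a feedback inhibitor that removes Frizzled receptors, was lower at 3 weeks (-0.97 and -0.57), and Nkd2, another feedback gene, was higher at every time in both genotypes (0.79 to 1.54). At 6 weeks 0 of 15 receptors were called in the Fas+/+ and 1 in the Fas-/- group. In the genotype comparisons and the interaction 0 genes were called in any of these lists.

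Among the other Wnt ligands 4 of 10 were tested. Wnt10a was at 0 to 0.0433 CPM in naive mice and at 0.491, 9.46, 13.3 and 8.31 CPM in the Fas+/+ and 9.31, 10.2, 6.57 and 1.94 CPM in the Fas-/- group at 3 weeks. The lowest library of each 3-week group was the one with the highest endothelial level. In the single cells 741 of 785 Wnt10a UMIs (94.4%) were mesenchymal, 679 of them in profibrotic-like cells (35.4 UMI CPM, interval 32.8 to 38.2), and 0 were in epithelial-like cells. Most of the Wnt2b UMIs were in mesothelial-like cells (72 of 106). In bulk Wnt2b averaged 22.3 CPM over 20 libraries, near Wnt11 at 20.2 CPM, yet it had far fewer single-cell UMIs than Wnt11. Its source in bulk therefore rests on few UMIs.

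Across the 20 bulk libraries, after the group means were subtracted, the ligands were compared with 15760 genes by Pearson's r of log2 CPM. These values describe the libraries, which share their differences in cell composition, and carry no test. Wnt3a was most like Mpp5 (r = 0.947), Ildr1 (0.938) and Popdc3 (0.925), and Wnt7a most like Itgb6 (0.913), Rab11fip1 (0.891) and Gprc5a (0.883). Wnt10b was most like Rgs11 (0.899), Cwc15 (0.878) and Grap2 (0.857). The median r with 8 alveolar type 1 markers was 0.729 for Wnt3a, 0.772 for Wnt7a and 0.675 for Wnt10b, and 0.236 or less for each of the other 6 ligands. Wnt7b had -0.386 there, as it did not follow the epithelium in bulk either. Wnt5a was most like Prag1 (0.961), Foxs1 (0.932) and Cav3 (0.928), and Wnt11 like Sept5 (0.957), Col6a2 (0.951) and Vcan (0.951). Their median r with 8 profibrotic markers was 0.767 and 0.861. Wnt2 was most like Sc5d (0.892), Acss2 (0.834) and Pcdhgb5 (0.829), with a median r of 0.520 with lipofibroblast markers, Wnt4 most like Plxnc1 (0.887), with 0.514 with profibrotic, 0.503 with pericyte and 0.488 with smooth muscle markers, and Wnt9a most like Lsamp (0.847). Between the ligands themselves, r was 0.787 for Wnt3a with Wnt7a and 0.777 for Wnt5a with Wnt11.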

How the data were processed

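Bulk RNA-seq of Lin- cells (20 libraries) and single-cell RNA-seq (5 libraries, 1 per condition) were analysed from the deposited tables. Per the labels and the study's methods, the authors used skewer for trimming, HISAT2 for alignment to GRCm38 and HTSeq for counting on Ensembl genes, and deposited raw counts per gene. They also deposited a normalized table of signal values, the counts divided by DESeq2 size factors, which was not used here, and Cell Ranger counts of UMIs per cell. A stranded kit was used, and the strand setting of the counting is not given in the sources used here.

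The members and gene lists were chosen with earlier results of these data known. Named genes were the 9 ligands, at most the 3 called genes of smallest adjusted p per pathway list and direction, and the 3 genes most like each ligand. Counts were tested with edgeR 4.0.16 (R 4.3.3): filterByExpr with a minimum count of 10, TMM, quasi-likelihood F test on all 5 groups, Benjamini-Hochberg adjustment over 15773 genes, and a call at an adjusted p of 0.05. Log2 CPM for correlations used a prior count of 2. Single values were tested by two-sided exact permutation. Total counts were 11819700 to 25189096. On simulated counts for the 6-week genotype comparison (15773 genes), 81 of 100 changes of 1 and 94 of 100 of 2 on the log2 scale were recovered, and 10 unchanged genes were called. The changed genes were drawn above a floor of mean count and planted together, which eases the adjusted threshold, whereas the real comparison called 8 genes. Recovery at the low counts of Wnt3a, Wnt7a, Wnt7b and Wnt10b was not measured separately. Replicate numbers were not taken to pair libraries. Replicates differed by more than counting noise (chi-square per gene of 7.24 or more).

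Of 13900 barcodes, the 12059 with 200 to 7500 genes detected and no more than 20% mitochondrial UMIs were integrated with Seurat 5.3.0 and sctransform 0.4.2 (3000 features without 69 Wnt and pathway genes, 20 components, resolution 0.8), giving 22 clusters. Clusters were named from at least 3 markers with a mean of at least 0.5 on the log2 scale above other cells (pseudocount of 10 UMI CPM). No doublets were removed: Scrublet (scanpy 1.11.5) marked 49 cells (0.406%), too few to be a working call. Intervals are exact Poisson or Clopper-Pearson at 95% (scipy 1.17.1). Alternatives were DESeq2 1.42.0, RLE, no filter, a replicate block, the compared groups alone, marker covariates, left-out libraries, resolution 0.4, at most 10% mitochondrial UMIs, and thinning to 3000 UMIs. Leaving out the 4 libraries that stand apart and counting the unnamed cluster as mesenchymal were chosen after seeing the data. RefSeq promoter windows and GENCODE gene models are of GRCm38.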

Additional observations from a re-analysis of the deposited data

Results flagged for a closer look

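In 5 of 45 sets of 4 libraries (9 ligands in 5 groups) 1 library lay far from the other 3 by Dixon's test at 95%, which by chance marks about 1 in 20 sets. Wnt4 was at 24.83 CPM in 3-week Fas+/+ replicate 1 against 28.57 to 28.99 CPM in the others, and Wnt5a was at 79.45 CPM in 3-week Fas-/- replicate 4 against 125.9 to 129.5 CPM. These are the libraries with the highest endothelial and lowest profibrotic marker levels of their groups, and the part of those cells in the low values was not tested. Wnt5a was at 177.9 CPM in 6-week Fas-/- replicate 1 against 106.8 to 114.4 CPM. In naive mice Wnt11 was at 16.5 CPM in replicate 1 against 22.6 to 23.46 CPM, and Wnt7b was at 3.714 CPM in replicate 2 against 1.766 to 1.861 CPM.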

How the results depend on the processing

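Of 161 alternative counts of called ligands, 129 stayed within 1.5 times the reported count, 19 fell and 13 rose further. Of 678 values of single ligands, 592 kept their direction and side of the threshold, 60 lost and 23 gained a call, and 3 reversed, all with the epithelial covariate: Wnt3a at 3 weeks against naive mice (-0.839 in Fas+/+ and -0.271 in Fas-/- mice) and Wnt7a in Fas+/+ mice (-0.007). The cause was not tested. Called ligands against naive mice were, with the epithelial covariate, 2 (3 weeks, Fas+/+), 1 (3 weeks, Fas-/-), 0 and 0 (6 weeks). With the endothelial covariate they were 2 and 3 at 3 weeks (3672 and 3894 of all 15773 genes called) and 2 in Fas-/- mice at 6 weeks (1342). With the mesothelial covariate they were 3 and 2 in Fas-/- mice at 3 and 6 weeks (2412 and 956 of 15773). Without a filter 2 were called in Fas-/- mice at 6 weeks (729 of 28881). Between genotypes DESeq2 called 1 (3 weeks), 2 (6 weeks) and 2 (interaction), and the fit without the 4 libraries that stand apart 1, 1 and 2, with the shares of all genes given above. RLE normalization called 1 (6 weeks, 11 of 15773 genes) and the endothelial covariate 1 (interaction, 40 of 15773). From 3 to 6 weeks the mesothelial covariate gave 2 in Fas+/+ and 0 in Fas-/- mice. In Fas-/- mice the epithelial covariate, and the fit without the 4 libraries, gave 2 each (970 of 15773 and 2650 of 15846 genes).

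Without single libraries the counts ran from 0 to 3 for Fas-/- mice at 6 weeks against naive mice (0 without Fas-/- replicate 2, 1 without naive replicate 3 or 4, 2 without naive replicate 2 or Fas-/- replicate 3 or 4). In these fits 549 to 843 of 16014 to 16052 genes were called. The ligand counts ran from 0 to 1 for the genotypes at 3 weeks (1 without Fas-/- replicate 4, 582 of 16011 genes) and from 0 to 1 at 6 weeks (1 without Fas+/+ replicate 4, 8 of 16045). They ran from 0 to 2 for the interaction (2 without Fas+/+ replicate 1 at 3 weeks, 162 of 16013). With replicate number as a replicate block, 2 ligands in place of 4 were called in Fas-/- mice at 6 weeks against naive mice (915 of 15773 genes). Between genotypes at 6 weeks the block took the calls over all genes from 8 to 0. The numbers mark no shared litter or day. In none of the 10 pairs of groups did every same-numbered pair correlate above 0.1 (-0.613 to 0.406 over all pairs). The nearest was the 6-week genotypes, at 0.075 to 0.338, where 5 of 8 libraries correlated best with their own number, a hint from the data and not the design.

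At resolution 0.4 the mesenchymal share was 65.9% for Wnt2, 48.7% for Wnt4, 61.6% for Wnt5a and 77.3% for Wnt11. With the unnamed cluster counted as mesenchymal it was 95.3%, 79.0%, 93.8%, 69.3% (Wnt9a) and 89.4% (Wnt11). Thinned to 3000 UMIs, the share of the leading class with a UMI was 41.6% for Wnt2, 63.7% for Wnt5a, 9.83% for Wnt9a, 10.4% for Wnt10b, 23.4% for Wnt11, 16.8% for Wnt3a, 14.4% for Wnt7a and 3.56% for Wnt7b. Leaving out Scrublet doublets was not run. Depth limits Wnt3a, Wnt7a, Wnt7b and Wnt10b most, with 128 to 247 UMIs each in all single cells.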
